A study of Mus musculus with 26 samples.

Results

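NRF2, the transcription factor encoded by Nfe2l2, and 9 genes tied to it were followed in mouse liver by RNA-seq of whole tissue. The 10 genes were chosen by name from 55401 in the table: the factor itself, its inhibitor Keap1, and the targets Nqo1, Gclc, Gclm, Hmox1, Srxn1, Txnrd1, Osgin1 and G6pdx. The list was drawn up with earlier results of these data known. All 10 passed the filter on low counts that left 16238 genes for testing. All mice were male C57BL/6 and shared 18 weeks of high-fat feeding begun at 4 weeks of age, a diet that the study's design text also calls high in cholesterol. The UCMSC-Exos livers (n = 8) came from mice that received natural exosomes, small vesicles shed by umbilical cord mesenchymal stem cells, through the tail vein every 72 h for 8 weeks. The untreated HFD livers (n = 9) came from mice on the same diet for which no injection is listed, so the vesicles and the injections cannot be told apart. Neither group had mice on another diet to set beside it, and 9 libraries of an engineered particle named LSCR were not analysed here.

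NRF2 is held in the cytoplasm by KEAP1, which passes it to a CUL3 ubiquitin ligase for destruction. Electrophiles and oxidants change cysteines of KEAP1, NRF2 then escapes, enters the nucleus with a small MAF partner and binds antioxidant response elements in its target genes. Those targets make glutathione, recharge thioredoxin and peroxiredoxins, supply NADPH, reduce quinones and break down haem. Control acts mostly on the NRF2 protein, which RNA-seq does not measure.

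Promoter letters are given for the members whose group difference passed the test (Osgin1, Srxn1 and G6pdx), for Gclm, which varied opposite to G6pdx from library to library, and for Nqo1, a widely used indicator of NRF2 activity. The sequences are from RefSeq on GRCm38.p6, in which 8 of the 10 members had a window of 250 bases before to 50 after a transcription start; Gclc and Hmox1 had no entry. The core of the antioxidant response element, TGACNNNGC, was searched on both strands, and capitals mark a match. Each is written 5′ to 3′ on the strand of its gene, for bases -250 to -1 at chr8:119436897-119437146 on the plus strand (Osgin1), chr8:107403206-107403455 on the minus strand (Nqo1), chrX:74428881-74429130 on the minus strand (G6pdx) and chr3:122245307-122245556 on the plus strand (Gclm). The Srxn1 stretch is bases 19 to 47 after its start, chr2:152105542-152105570 on the plus strand.
Osgin1: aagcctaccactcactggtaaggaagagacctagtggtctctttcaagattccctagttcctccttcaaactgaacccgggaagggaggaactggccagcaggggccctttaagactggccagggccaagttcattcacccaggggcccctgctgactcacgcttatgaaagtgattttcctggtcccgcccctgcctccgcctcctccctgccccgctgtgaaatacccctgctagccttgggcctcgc
Nqo1: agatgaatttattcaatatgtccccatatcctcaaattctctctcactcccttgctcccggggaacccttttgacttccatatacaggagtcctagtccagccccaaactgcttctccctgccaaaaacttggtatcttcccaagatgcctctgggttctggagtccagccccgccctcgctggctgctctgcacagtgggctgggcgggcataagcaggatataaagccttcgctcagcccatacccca
G6pdx: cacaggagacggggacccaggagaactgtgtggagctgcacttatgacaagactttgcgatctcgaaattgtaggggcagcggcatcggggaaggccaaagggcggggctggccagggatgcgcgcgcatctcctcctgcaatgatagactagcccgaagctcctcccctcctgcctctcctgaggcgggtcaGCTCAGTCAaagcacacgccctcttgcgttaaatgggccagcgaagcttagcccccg
Gclm: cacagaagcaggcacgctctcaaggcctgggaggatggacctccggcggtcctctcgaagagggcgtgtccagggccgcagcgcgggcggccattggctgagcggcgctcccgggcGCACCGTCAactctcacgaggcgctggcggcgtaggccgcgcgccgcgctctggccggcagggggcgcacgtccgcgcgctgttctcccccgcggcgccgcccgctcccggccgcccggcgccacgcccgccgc
Srxn1: gcagtgggcaGCTAGGTCAgagtgagaca
A match was present in 5 of the 8 members with a window: Nfe2l2, Srxn1, Gclm, G6pdx and 1 of the 3 starts of Txnrd1. The windows of Osgin1, Nqo1 and Keap1 had none. Those of Osgin1 and G6pdx lie inside the genes as counted here, which begin at 119434124 and, on the minus strand, at 74429194. Bases before these outer starts were not searched. For comparison, 12.4% of all 32851 windows of that length and 16.7% of the 11487 tested genes with a window held a match. A match is a string of letters and says nothing of binding, and the window does not reach more distant elements.

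Total counts were 32941467 to 36065074 reads per library. In a principal component analysis UCMSC-Exos 9 lay among the untreated HFD libraries, at 49.6 on the first component, against -63.2 to -30.6 for the other 7 UCMSC-Exos libraries and 2.23 to 51.7 for the untreated HFD libraries. Pancreas markers summed to 9170.2 CPM (counts per 1000000 reads of scaled library size) in untreated HFD 3, which also had the lowest summed mitochondrially encoded RNA (2777 CPM), and skeletal muscle markers summed to 7194 CPM in untreated HFD 9. Hepatocyte markers defined the tissue in both groups, with summed levels of 42864 to 74894 CPM in UCMSC-Exos and 34661 to 53136 CPM in untreated HFD. Of 5 measured markers 5 were higher in UCMSC-Exos livers, beside 9.73% of all tested genes. The plasma cell gene Igha was 37.4 CPM in UCMSC-Exos 9, where the other UCMSC-Exos libraries had 22.1 to 63.6 CPM and the untreated HFD libraries 0.896 to 2.87 CPM, so this gene sides with the library's label while the first component does not. Whether UCMSC-Exos 9 was mislabelled or mixed was not tested. For the 10 genes, it is stated where leaving out the 3 libraries changes a call.

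The members that passed the test lay on both sides of zero. Of the 10 genes, Osgin1 was higher in UCMSC-Exos livers, Srxn1 and G6pdx were lower, and the other 7 did not pass at an adjusted p of 0.05 (edgeR's quasi-likelihood test with Benjamini-Hochberg adjustment over all tested genes). That is 3 of 10 called, or 30.0%, beside 20.2% of all tested genes; 1 of 10 was higher beside 9.73% of all genes, and 2 of 10 were lower beside 10.4%. The median log2 fold change was -0.08 over the 10 genes and -0.02 over all tested genes. For none of the 10 did the ranges of the 2 groups stand apart, which was so for 1.3% of all tested genes. The count of called members fell to 1 when UCMSC-Exos 1, 2, 3 or 5 or untreated HFD 4 was left out, and it was 5 without untreated HFD 3 and 7 without untreated HFD 3 and 9 and UCMSC-Exos 9.

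**Figure D1:**
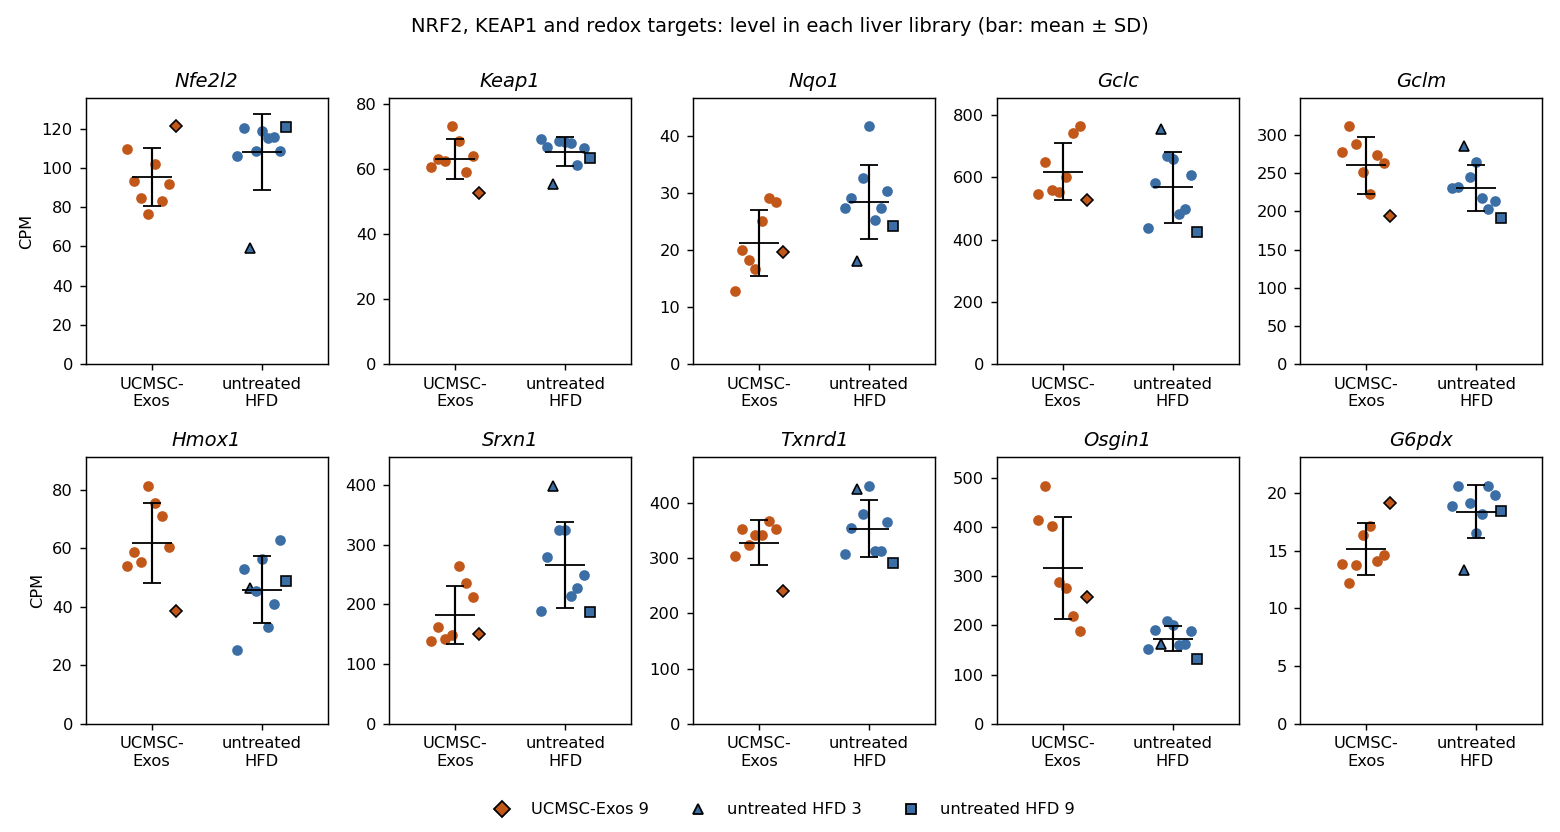
Level of each of the 10 genes in CPM (vertical axis from 0) in 8 UCMSC-Exos (left in each panel) and 9 untreated HFD libraries (right); points are libraries, bars are mean ± SD, and outlined symbols mark the 3 libraries that stand apart. Osgin1 has 7 of 8 UCMSC-Exos libraries above every untreated HFD library, while the groups overlap throughout for Gclc and Keap1.

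Nfe2l2 itself (chromosome 2, 75675513 to 75704641 of mm10, minus strand) had 76.4 CPM in the lowest, 92.6 in the median and 121 in the highest UCMSC-Exos library, against 59.0, 115 and 121 CPM in the untreated HFD libraries. In the untreated HFD group 8 of the 9 libraries lay between 106 and 121 CPM and only the library with pancreas RNA lay far below. Nfe2l2 averaged 95.2 ± 14.9 CPM in UCMSC-Exos and 108 ± 19.2 CPM in untreated HFD livers (SD), a log2 fold change of -0.18 ± 0.12 (SE, 95% interval -0.44 to 0.07, adjusted p = 0.289 by edgeR). With all 17 libraries, limma voom with quality weights called it lower (-0.30, adjusted p = 0.00246), 1 of 3 calls among the 9 alternatives beyond single left-out libraries. Leaving out untreated HFD 3 gave -0.26 with an adjusted p of 0.0275 (edgeR), and leaving out all 3 libraries that stand apart gave -0.31 with 0.00178. The part of the pancreas RNA in that result was not tested beyond this.

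Keap1, the adaptor that marks NRF2 for destruction (chromosome 9, 21229730 to 21239361, minus strand), had the lowest coefficient of variation of the 10 genes in both groups, 9.79% in UCMSC-Exos and 6.91% in untreated HFD livers. It had 52.6, 62.9 and 73.2 CPM (lowest, median, highest) in UCMSC-Exos libraries and 55.5, 66.9 and 69.4 CPM in untreated HFD libraries, and the groups overlapped. Keap1 differed by a log2 fold change of -0.05 ± 0.06 (SE, 95% interval -0.19 to 0.08, adjusted p = 0.58 by edgeR). With scaling by library totals alone Keap1 passed at -0.23 (adjusted p = 0.0177). An antisense gene, Gm16754, covers 10.9% of its exon bases and had 606 reads over the 17 libraries; counting took no account of strand. The ratio of Nfe2l2 to Keap1, per kilobase of exon, averaged 1.90 ± 0.461 in UCMSC-Exos and 2.04 ± 0.314 in untreated HFD livers (SD), a difference of mean log2 ratios of -0.11 (exact two-sided permutation test over samples, p = 0.437, and 0.732 adjusted over 2 ratios). Without the 3 libraries that stand apart the difference was -0.26 and the exact permutation p was 0.014.

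Osgin1, a growth inhibitor induced by oxidative stress (ENSMUSG00000074063.10, chromosome 8, 119434124 to 119446256, plus strand), was higher in UCMSC-Exos livers. Its levels were 189, 283 and 484 CPM (lowest, median, highest) in UCMSC-Exos and 131, 162 and 209 CPM in untreated HFD libraries. All 8 UCMSC-Exos libraries exceeded the untreated HFD median, and 7 of them exceeded the highest untreated HFD library; the exception was UCMSC-Exos 8. Osgin1 had a log2 fold change of 0.87 ± 0.16 (SE, 95% interval 0.53 to 1.21, adjusted p = 0.00139 by edgeR). Spread was wider under treatment, with a coefficient of variation of 33.0% in UCMSC-Exos and 14.8% in untreated HFD livers, and UCMSC-Exos 1, 2 and 3 held the 3 highest values, 414, 484 and 402 CPM. The call stood in all 17 fits that left out 1 library (log2 fold change 0.76 to 0.95) and in the 9 other alternatives (0.66 to 0.88). Relative to the summed hepatocyte markers, which were themselves higher, Osgin1 amounted to 0.492% ± 0.130 in UCMSC-Exos and 0.390% ± 0.0657 in untreated HFD livers (SD); the part of the hepatocyte share in the result was not tested further.

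Srxn1 encodes sulfiredoxin, which restores overoxidised peroxiredoxins (ENSMUSG00000032802.8, chromosome 2, 152105516 to 152111376, plus strand). It was lower in UCMSC-Exos livers, with 139, 157 and 264 CPM (lowest, median, highest) against 187, 248 and 398 CPM in untreated HFD libraries. Of the 8 UCMSC-Exos libraries, 5 lay below every untreated HFD library, and UCMSC-Exos 6, 7 and 8 reached into the untreated HFD range. The log2 fold change was -0.55 ± 0.17 (SE, 95% interval -0.90 to -0.19, adjusted p = 0.0312 by edgeR). The call was lost without UCMSC-Exos 1, 2, 3 or 5 or untreated HFD 4, with log2 fold changes of -0.50, -0.52, -0.50, -0.51 and -0.51 and adjusted p-values of 0.0655, 0.0639, 0.0688, 0.0642 and 0.0535 (edgeR). It was also lost with no filter on low counts (adjusted p = 0.0587) and with the replicate block (0.0772). Its highest value, 398 CPM, was in untreated HFD 3, and without untreated HFD 3 and 9 the gene still passed.

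**Figure D2:**
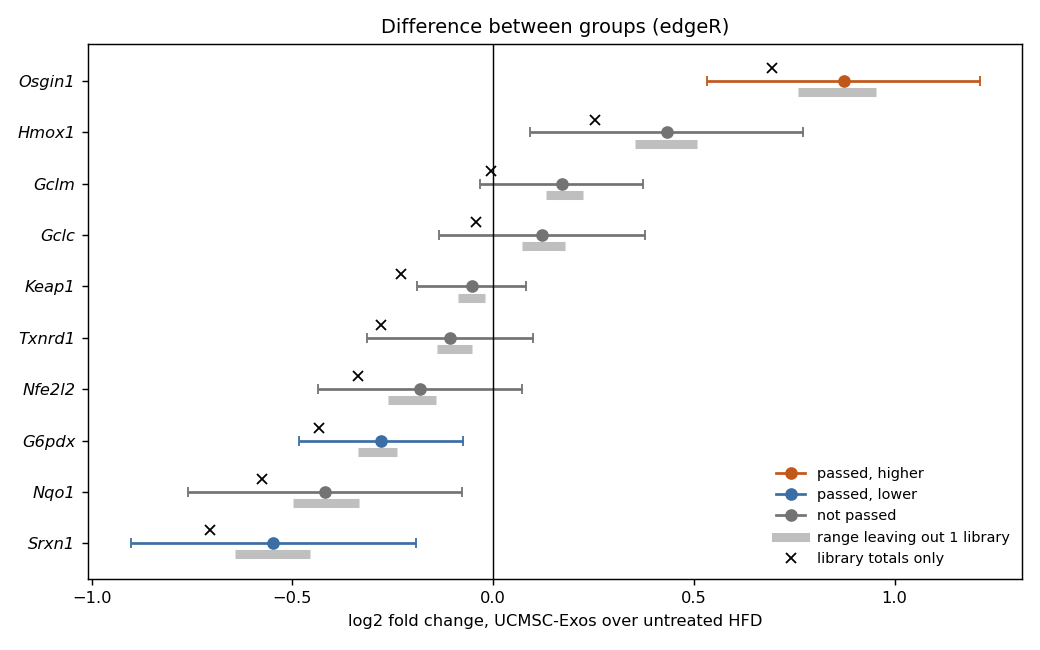
Log2 fold change of each gene, UCMSC-Exos over untreated HFD (horizontal axis), with its 95% interval; grey bars give the range over 17 fits that leave out 1 library and crosses the value with scaling by library totals alone. Osgin1 is highest at 0.87 and Srxn1 lowest at -0.55, and the crosses lie below zero for Gclm and Gclc.

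Osgin1 and Srxn1 changed places in the order of levels. Per kilobase of exon, the mean level in UCMSC-Exos livers was highest for Gclc (164 CPM per kilobase), then Osgin1 (118), Srxn1 (64.5), Txnrd1 (46.4), Gclm (41.4), Hmox1 (35.3), Nfe2l2 (25.1), Nqo1 (13.7), Keap1 (13.4) and G6pdx (4.91). In untreated HFD livers it was Gclc (151), Srxn1 (94.3), Osgin1 (64.6), Txnrd1 (49.9), Gclm (36.7), Nfe2l2 (28.5), Hmox1 (26.2), Nqo1 (18.3), Keap1 (13.9) and G6pdx (5.96). The ranges of neighbours in these orders overlapped except for Nfe2l2 above Nqo1 in UCMSC-Exos and for Keap1 above G6pdx in both groups. Osgin1 exceeded Srxn1 per kilobase in 6 of 8 UCMSC-Exos and 0 of 9 untreated HFD libraries, with mean ratios of 2.02 ± 0.972 and 0.712 ± 0.123 (SD), a description drawn after both genes' values were seen.

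Nqo1 encodes a quinone reductase widely read as NRF2 output (chromosome 8, 107388225 to 107403206, minus strand). It had 12.9, 19.9 and 29.2 CPM (lowest, median, highest) in UCMSC-Exos and 18.2, 27.3 and 41.7 CPM in untreated HFD libraries. Of the 8 UCMSC-Exos libraries, 6 lay below the untreated HFD median, and UCMSC-Exos 7 and 8 lay above it. The log2 fold change of -0.42 ± 0.16 (SE, 95% interval -0.76 to -0.08) did not pass, with an adjusted p of 0.0738 (edgeR). It passed without UCMSC-Exos 7 (-0.50, adjusted p = 0.0474 by edgeR) and without untreated HFD 3 (-0.48, adjusted p = 0.0336). Leaving out 1 library on either side can thus change that call. Of the 9 alternatives beyond single left-out libraries, 4 called Nqo1 lower. These were limma voom (-0.53, adjusted p = 0.00524), library totals alone (-0.58, adjusted p = 0.0222 by edgeR), and the fits without untreated HFD 3 and 9 and without those and UCMSC-Exos 9.

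Glutathione synthesis begins with glutamate-cysteine ligase, made of the catalytic subunit Gclc and the modifier subunit Gclm. Gclc (chromosome 9, 77754535 to 77794485, plus strand) had 526, 580.4 and 764 CPM in UCMSC-Exos and 425, 582 and 754.5 CPM in untreated HFD libraries (lowest, median, highest). The medians nearly coincided, and 4 UCMSC-Exos libraries lay on each side of the untreated HFD median. Gclm (chromosome 3, 122245557 to 122270732, plus strand) had 194, 269 and 311 CPM in UCMSC-Exos and 191, 231 and 286 CPM in untreated HFD libraries, with 6 of 8 UCMSC-Exos libraries above the untreated HFD median. Neither gene passed, with log2 fold changes of 0.12 ± 0.12 (95% interval -0.14 to 0.38, adjusted p = 0.504) for Gclc and 0.17 ± 0.10 (95% interval -0.03 to 0.37, adjusted p = 0.211) for Gclm (SE, edgeR). Gclm passed as higher without the 3 libraries that stand apart (0.23, adjusted p = 0.0164 by edgeR) and with limma voom (0.27, adjusted p = 0.00312). The directions of both genes turn with scaling by library totals alone, which gave -0.04 for Gclc and -0.01 for Gclm while moving the median of all genes to -0.19. The ratio of Gclc to Gclm per kilobase was 4.02 ± 0.65 in UCMSC-Exos and 4.09 ± 0.488 in untreated HFD livers (SD; exact two-sided permutation p = 0.732). The antisense gene Gm17494 covers 4.7% of the exon bases of Gclm and had 226 reads over the 17 libraries. Gm6061, on the same strand as Gclm, covers 3.9% and had 0 reads.

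Txnrd1 encodes cytosolic thioredoxin reductase (chromosome 10, 82833951 to 82897712, plus strand). It had 240.5, 342 and 368 CPM in UCMSC-Exos and 291, 354 and 431 CPM in untreated HFD libraries (lowest, median, highest), and its lowest UCMSC-Exos value was in library 9. Txnrd1 had a log2 fold change of -0.11 ± 0.10 (SE, 95% interval -0.31 to 0.10, adjusted p = 0.458 by edgeR). It passed as lower with 3 surrogate variables (-0.27, adjusted p = 0.00612) and with library totals alone (-0.28, adjusted p = 0.0136).

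G6pdx, the first enzyme of the pentose phosphate pathway and a source of NADPH (ENSMUSG00000031400.10, chromosome X, 74409483 to 74429194, minus strand), was lower in UCMSC-Exos livers by a small margin. It had 12.2, 14.4 and 19.1 CPM in UCMSC-Exos and 13.3, 18.8 and 20.6 CPM in untreated HFD libraries (lowest, median, highest). The 7 UCMSC-Exos libraries other than library 9 lay below the untreated HFD median, and the lowest untreated HFD value was in library 3. The log2 fold change of -0.28 ± 0.10 (SE, 95% interval -0.48 to -0.08) had an adjusted p of 0.0491 (edgeR). That call was kept in 4 of 17 fits leaving out 1 library (those without UCMSC-Exos 6, UCMSC-Exos 9, untreated HFD 3 or untreated HFD 5); in the other 13 the log2 fold change stayed between -0.30 and -0.24 and the adjusted p reached 0.104 (edgeR). It was also lost with RLE size factors (adjusted p = 0.0532), no filter on low counts (0.0902), the replicate block (0.0993) and 3 surrogate variables (0.122). The opposite-strand gene Ikbkg covers 13.6% of the exon bases of G6pdx and had 68184 reads over the 17 libraries, and reads of the 2 genes cannot be told apart by strand. No read was counted for the retrogene copy G6pd2 in the 17 libraries.

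Hmox1 encodes haem oxygenase, which opens the haem ring and is abundant in Kupffer cells, the resident macrophages of liver (chromosome 8, 75093621 to 75100589, plus strand). It had 38.6, 59.4 and 81.3 CPM in UCMSC-Exos and 25.4, 46.5 and 62.7 CPM in untreated HFD libraries (lowest, median, highest). Of the 8 UCMSC-Exos libraries, 7 exceeded the untreated HFD median and 3 exceeded every untreated HFD library. The log2 fold change of 0.43 ± 0.16 (SE, 95% interval 0.09 to 0.77) did not pass, with an adjusted p of 0.0652 (edgeR), and passed without UCMSC-Exos 9 (0.51, adjusted p = 0.0139) or without untreated HFD 8 (0.50, adjusted p = 0.0363), with DESeq2 (0.44, 0.0375), with limma voom (0.52, 0.00605) and without the 3 libraries that stand apart (0.52, 0.0278). The value was 0.13 with 3 surrogate variables (adjusted p = 0.617) and 0.25 with library totals alone (0.179).

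Kupffer cell markers moved with Hmox1. Of 7 markers (Clec4f, Vsig4, Timd4, Cd5l, C6, Marco and Cd163, of which C6 is also made by hepatocytes), 4 were higher in UCMSC-Exos livers and 0 were lower, and none was at 0 in all libraries. Over all tested genes, 9.73% were higher and 10.4% lower. Their summed level was 656, 1450.1 and 1865 CPM in UCMSC-Exos and 300, 1086 and 1466 CPM in untreated HFD libraries (lowest, median, highest). In that order of groups, mean levels were 490 and 497 CPM for Cd5l, 373 and 185 for C6, and 287 and 239 for Clec4f. They were 85.3 and 16.4 CPM for Marco, 73.6 and 45.1 for Vsig4, 71.6 and 8.96 for Cd163, and 23.8 and 4.56 for Timd4. In CPM the group difference was thus largest for C6, and the part of hepatocyte C6 in the sum was not tested. Within groups, after subtracting each group's mean of log2 CPM, Hmox1 followed that sum over the 17 libraries with Pearson's r = 0.907 and Spearman's rho = 0.87 (permutation test, p adjusted over 10 genes 0.0004 and 0.0002). The r was 0.791 without UCMSC-Exos 9 and untreated HFD 1, the 2 libraries farthest from the median of the sum, and 0.922 over the 14 libraries left after taking out the 3 that stand apart. Of the other 9 members, Txnrd1 alone passed for r (0.658, adjusted permutation p = 0.026), but not for rho (adjusted p = 0.2), and not without the 3 libraries (r = 0.597, adjusted p = 0.2). Some other cell type lists held calls too. Of 7 markers of monocytes and lipid-associated macrophages 0 were higher and 4 lower (summed level 238 to 1015 CPM in UCMSC-Exos and 405 to 692 CPM in untreated HFD libraries). Of 6 stellate markers 3 were lower, and of 5 B and plasma cell markers 2 were higher. Of 5 markers of sinusoidal endothelium 1 was higher, and of 6 cholangiocyte markers 0 passed in either direction. The part of these cells in the Hmox1 level was not tested. Hmox1 amounted to 4.50% ± 0.658 of the summed marker CPM in UCMSC-Exos and 4.99% ± 1.43 in untreated HFD livers (SD), a ratio computed after the relation was seen. In whole tissue, more cells of a type and more RNA per cell cannot be told apart.

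**Figure D3:**
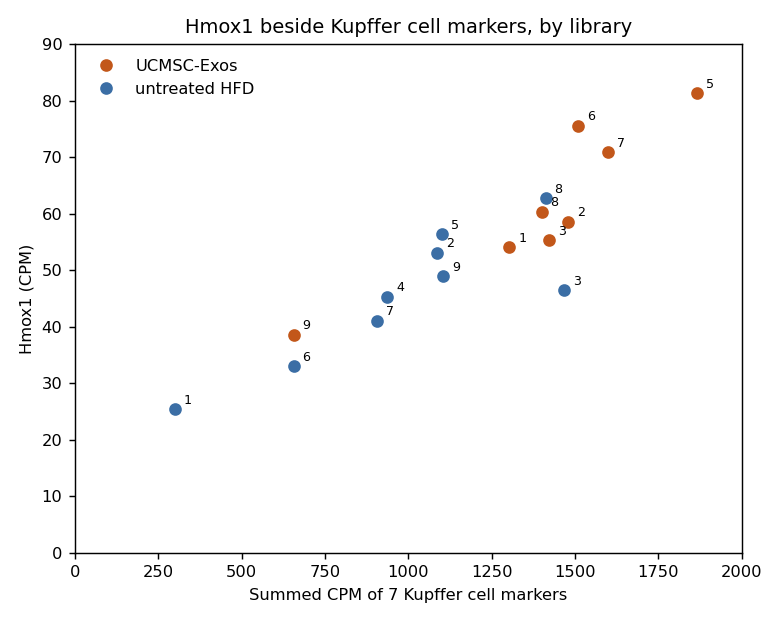
Hmox1 in CPM (vertical axis) against the summed CPM of 7 Kupffer cell markers (horizontal axis), 1 point per library with its number, UCMSC-Exos and untreated HFD in separate colours. Libraries of both groups lie along 1 rising band, with UCMSC-Exos 5 at its top (1865 and 81.3 CPM) and untreated HFD 1 at its foot (300 and 25.4 CPM).

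The 10 genes did not vary as 1 block from animal to animal. Of 45 pairs, compared over 17 libraries as deviations from group means of log2 CPM, 29 had a positive r and 6 passed a permutation test adjusted over the pairs. The shares among pairs of other genes were not computed, so these counts have no reference value. Gclc, Srxn1 and Txnrd1 varied together. Gclc and Srxn1 had r = 0.854 and rho = 0.843 (adjusted permutation p = 0.0016 for r), Gclc and Txnrd1 had r = 0.849 and rho = 0.907 (0.0009), and Srxn1 and Txnrd1 had r = 0.745 and rho = 0.792 (0.0073). Without the 2 farthest libraries these r were 0.789, 0.795 and 0.739. Srxn1 and Txnrd1 missed the threshold without untreated HFD 3 and 9 (r = 0.658, adjusted permutation p = 0.052).

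Gclm varied with Txnrd1 (r = 0.764, rho = 0.701, adjusted permutation p = 0.0073) and against G6pdx (r = -0.858, rho = -0.848, 0.0009). Without UCMSC-Exos 9 and untreated HFD 3 these were 0.58 and -0.764. The pair of Gclm and Txnrd1 no longer passed without UCMSC-Exos 9 (r = 0.645, adjusted permutation p = 0.11) or without untreated HFD 3 and 9 (r = 0.683, 0.054), whereas that of Gclm and G6pdx passed in each of the 4 alternatives run. Hmox1 and Txnrd1 passed for r (0.656, adjusted permutation p = 0.048) and not for rho (0.561, adjusted p = 0.12), and not without UCMSC-Exos 9 (r = 0.53, adjusted p = 0.26), but for both without untreated HFD 3 and 9 (r = 0.777, adjusted p = 0.0085, and rho = 0.689, adjusted p = 0.048). All values share library depth and scaling, and the libraries that stand apart supply much of the range.

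**Figure D4:**
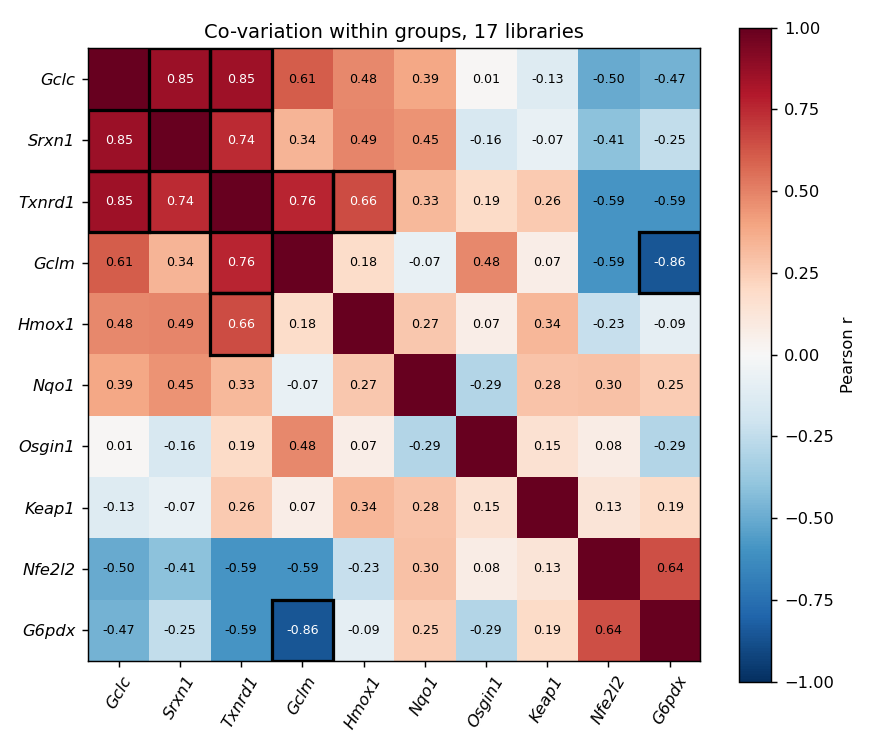
Pearson's r between genes over 17 libraries, from deviations of log2 CPM from each group's mean; colour runs from -1 to 1 and black frames mark the 6 pairs that passed. Gclc, Srxn1 and Txnrd1 form the framed corner at top left, and Gclm and G6pdx the dark blue cell at -0.858.

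Nfe2l2, Keap1, Nqo1 and Osgin1 were in none of the 6 pairs. The r of Nfe2l2 with the other members ran from -0.589 (Gclm, adjusted permutation p = 0.054) to 0.641 (G6pdx, 0.085). Nfe2l2 and Txnrd1 (r = -0.586, adjusted permutation p = 0.053) passed for r with RLE size factors (-0.587, 0.048), and not for rho (0.098). Without the 3 libraries that stand apart, r of that pair was -0.138 (adjusted permutation p = 0.88). The r of Nqo1 with the other members ran from -0.294 to 0.45 over all libraries. With untreated HFD 3 and 9 left out, Nqo1 joined Srxn1 (r = 0.834, rho = 0.907, adjusted permutation p = 0.0036) and Gclc (r = 0.756, rho = 0.789, 0.0085). With UCMSC-Exos 9 left out as well it also joined Txnrd1 (r = 0.745, rho = 0.749, adjusted permutation p = 0.0022). Among 13785 genes with a mean of at least 1 CPM, the closest to Nqo1 over the 17 libraries were Ifi27l2b (r = 0.843), Pot1a (0.83), Ncapd3 (0.83), Dtymk (0.812) and Pon2 (0.812), and none of these 5 passed the group test. Picking the highest of 13785 values raises such r by itself, and no reference value for the search was computed.

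A wider list of 65 tested genes of the pathway split in both directions. In UCMSC-Exos livers 9 were higher and 10 lower, and 46 did not pass, so 29.2% were called beside 20.2% of all tested genes, with a median log2 fold change of -0.01. Scaling by library totals alone gave 4 higher and 23 lower on the list, and 737 higher and 2961 lower over all genes, against 1580 higher and 1694 lower with the scaling used. In 3 genes, Sesn2, Me1 and Gstm3, the groups did not overlap, beside 1.3% of all tested genes. By role, the share called was 16.7% for NRF2 control, 42.9% for glutathione supply, 28.6% for thioredoxin and peroxide and 40.0% for NADPH supply. It was 34.8% for conjugation and quinone or aldehyde reduction, 25.0% for export carriers and 14.3% for haem and iron. The shares of NRF2 control and of haem and iron lay under the 20.2% of all tested genes.

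Among 12 genes of NRF2 control, 2 were called (16.7%, beside 20.2% of all tested genes). The repressor Bach1, which competes for antioxidant response elements, was higher and the small MAF partner Mafk was lower. Bach1 had 58.2, 75.5 and 124.5 CPM in UCMSC-Exos and 58.0, 60.7 and 66.6 CPM in untreated HFD libraries (lowest, median, highest), with 6 of 8 UCMSC-Exos libraries above every untreated HFD one and a log2 fold change of 0.48 ± 0.13 (SE, adjusted p = 0.0143 by edgeR). Bach1 did not pass with 3 surrogate variables (0.34, adjusted p = 0.224) or library totals alone (0.30, 0.0589). Mafk averaged 30.5 ± 4.87 CPM in UCMSC-Exos and 40.1 ± 10.3 CPM in untreated HFD livers (SD), a log2 fold change of -0.40 ± 0.13 (SE, adjusted p = 0.0346 by edgeR). The untreated HFD mean includes 67.4 CPM in untreated HFD 3, the library with pancreas RNA, where the group median was 36.85 CPM. Over the 17 fits leaving out 1 library, the log2 fold change of Mafk ran from -0.47 to -0.27. The Mafk call was lost when UCMSC-Exos 1, 2, 3, 5, 7 or 8 was left out, at adjusted p-values up to 0.0736 (edgeR), with the replicate block (0.0678) and with 3 surrogate variables (-0.14, 0.166). The ubiquitin ligase scaffold Cul3 did not pass (log2 fold change 0.12 ± 0.08).

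Of 7 genes of glutathione supply, 2 were higher and 1 lower. Cth, which makes cysteine from cystathionine, had 109, 276 and 372.5 CPM in UCMSC-Exos and 73.5, 127 and 163 CPM in untreated HFD libraries (lowest, median, highest). The 7 UCMSC-Exos libraries other than library 9 exceeded every untreated HFD library, and the log2 fold change was 1.14 ± 0.19 (SE, adjusted p = 0.000647 by edgeR). Chac2, which degrades glutathione, averaged 22.1 ± 3.73 CPM in UCMSC-Exos and 16.98 ± 1.98 CPM in untreated HFD livers (SD; log2 fold change 0.38 ± 0.11 SE, adjusted p = 0.0179 by edgeR), and did not pass with 3 surrogate variables (0.18, adjusted p = 0.19) or library totals alone (0.20, 0.0773). Slc3a2, the heavy chain shared by several amino acid transporters, was lower, at 45.5 ± 8.13 CPM in UCMSC-Exos and 62.8 ± 8.51 CPM in untreated HFD livers (SD; log2 fold change -0.46 ± 0.10 SE, adjusted p = 0.00501 by edgeR). Glutathione synthetase (Gss) and glutathione reductase (Gsr) did not pass, with log2 fold changes of -0.09 ± 0.09 and -0.05 ± 0.10.

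Of 7 genes of the thioredoxin and peroxide group, Sesn2 was higher and Gpx4 lower. Sesn2, a stress-induced sestrin, had 19.5, 20.3 and 25.4 CPM in UCMSC-Exos and 12.2, 15.99 and 17.5 CPM in untreated HFD libraries (lowest, median, highest), without overlap (log2 fold change 0.43 ± 0.08 SE, adjusted p = 0.00188 by edgeR). Gpx4, which reduces lipid hydroperoxides in membranes, had 279, 312 and 370.0 CPM in UCMSC-Exos and 323, 376 and 469 CPM in untreated HFD libraries, with 6 UCMSC-Exos libraries below every untreated HFD one (log2 fold change -0.32 ± 0.08 SE, adjusted p = 0.0136 by edgeR).

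Among 5 further genes of NADPH supply, 2 were lower, as G6pdx was, and none was higher. Malic enzyme, Me1, which also feeds fatty acid synthesis, had 145, 157 and 182 CPM in UCMSC-Exos and 202, 238 and 353 CPM in untreated HFD libraries (lowest, median, highest). Its groups did not overlap, and the log2 fold change was -0.70 ± 0.11 (SE, adjusted p = 0.000279 by edgeR). Pgd, the pentose phosphate enzyme acting after G6pdx and 6-phosphogluconolactonase, averaged 104 ± 20.2 CPM in UCMSC-Exos and 144 ± 20.9 CPM in untreated HFD livers (SD; log2 fold change -0.47 ± 0.11 SE, adjusted p = 0.00653 by edgeR). All 3 of these NADPH genes are also known as lipogenic genes of liver.

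The largest role, 23 genes of conjugation and of quinone or aldehyde reduction, had 3 higher and 5 lower. The glutathione transferase Gstm3 had 186, 418 and 625 CPM in UCMSC-Exos and 683, 884 and 1183 CPM in untreated HFD libraries (lowest, median, highest), without overlap (log2 fold change -1.14 ± 0.18 SE, adjusted p = 0.000349 by edgeR). Gsta1 averaged 17.1 ± 5.05 CPM in UCMSC-Exos and 37.5 ± 9.53 CPM in untreated HFD livers (SD; log2 fold change -1.14 ± 0.19 SE, adjusted p = 0.000763 by edgeR). Gstm2 averaged 78.7 ± 13.3 CPM in UCMSC-Exos and 125 ± 29.4 CPM in untreated HFD livers (SD; log2 fold change -0.67 ± 0.13 SE, adjusted p = 0.00235 by edgeR). Glutathione transferases of 1 class are similar in sequence, and how reads divide among them was not tested. The remaining calls, named here after their values were seen, were Gstp1 (0.95), Ugt1a6a (0.55) and Nqo2 (0.37) higher and the carbonyl reductases Cbr3 (-1.39) and Cbr1 (-0.56) lower, as log2 fold changes. Cbr3 (SE 0.41, adjusted p = 0.0258 by edgeR) and Cbr1 (SE 0.19, 0.0491) were highest in untreated HFD 3, the library with pancreas RNA. They had 253.6 and 349.1 CPM there, against untreated HFD medians of 64.7 and 211.5 CPM. All 8 UCMSC-Exos libraries lay below these medians. The part of untreated HFD 3 in these 2 fold changes was not tested.

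**Figure D5:**
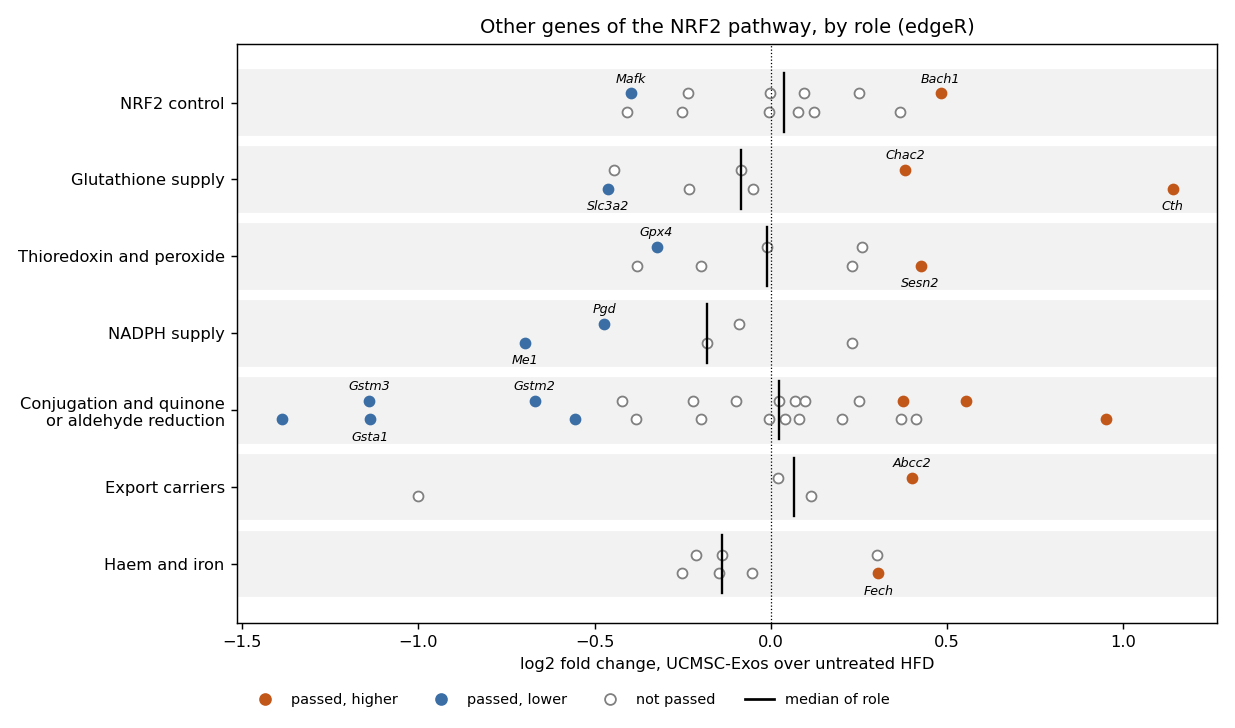
Log2 fold change, UCMSC-Exos over untreated HFD (horizontal axis), of 65 pathway genes in 7 roles; filled points passed the test, open points did not, black bars are role medians, and the genes labelled are those described in the text. Called genes lie on both sides of zero in 4 roles, and both called genes of NADPH supply lie below it.

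Of 4 export carriers 1 was higher. Abcc2, which carries glutathione and glucuronide conjugates into bile, had 893, 1392 and 1505 CPM in UCMSC-Exos and 808, 1009 and 1201 CPM in untreated HFD libraries (lowest, median, highest), a log2 fold change of 0.40 ± 0.11 (SE, adjusted p = 0.0200 by edgeR). Of 7 genes of haem and iron 1 was called, as higher (14.3%, beside 20.2% of all tested genes called). Fech, which inserts iron into haem, averaged 199 ± 26.8 CPM in UCMSC-Exos and 161 ± 14.8 CPM in untreated HFD livers (SD; log2 fold change 0.31 ± 0.09 SE, adjusted p = 0.0196 by edgeR). In both genes the lowest UCMSC-Exos value was in library 9. Neither passed with 3 surrogate variables (Abcc2 0.13, adjusted p = 0.295; Fech 0.10, 0.305) or library totals alone (Abcc2 0.22, 0.0661; Fech 0.13, 0.139). Erythroid markers, which also depend on haem synthesis, were higher for 2 of 3 tested, beside 9.73% of all tested genes. Their summed levels were 134 to 325 CPM in UCMSC-Exos and 68.0 to 189 CPM in untreated HFD libraries, and their part in the Fech result was not tested. The ferritin chains Fth1 and Ftl1 and biliverdin reductase Blvra, genes acting beside or after Hmox1, did not pass, with log2 fold changes of -0.14 ± 0.10, -0.05 ± 0.18 and -0.21 ± 0.11.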

How the data were processed

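Liver total RNA was sequenced, and fastp 1.3.3, HISAT2 2.2.1 and featureCounts of Subread 2.0.2 were used with mm10, per the submitters' processing notes. Per the file headers, the deposited values are raw counts of reads from featureCounts 2.1.1 over exons of GENCODE vM25, paired mode, with no strand option; both versions are given as found. The authors did not normalize the counts. Of the per-sample columns, 1 matched no sample and was not used. Symbols were found for 55141 of the 55401 IDs; where several IDs had 1 symbol (213 IDs) the ID was used instead.

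Genes were filtered with filterByExpr (minimum count 10), scaled by TMM and tested with edgeR 4.0.16 in R 4.3.3 over the 17 libraries, without covariates; the biological coefficient of variation was 0.29. P-values were adjusted over all 16238 genes, with a threshold of 0.05. Levels are CPM on TMM-scaled library sizes; levels of different genes were compared per kilobase of exon. Intervals are 95%. Correlations used log2 CPM (prior count 2) less group means and 100000 permutation draws, for which the smallest p is 1e-05. The fit was tested on simulated data. It recovered 25.4% of genes with a simulated log2 change of 0.5, 71.6% at 1 and 95.2% at 2. Of its calls there, 6.72% were false, at the threshold of 0.05. Alternatives were RLE factors, library totals, no filter, a replicate block, 3 surrogate variables (sva 3.50.0), DESeq2 1.42.0, limma voom 3.58.1 and left-out libraries; 2 of these, library totals and leaving out UCMSC-Exos 9 with untreated HFD 3 and 9, were chosen after seeing the data.

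Among pairs within a group, UCMSC-Exos 2 and 3 were closest, with a median squared difference 3.79 times that of counting noise. No 2 libraries of a group were thus as alike as repeated counts of 1 library. Pairs across the groups were not compared, and 2 libraries from 1 animal would not be detected this way. No label gives a batch, cage or date. The members and lists were chosen with earlier results of these data known. Named were all members, in each role of the wider list up to 3 passing genes of smallest p (or 1 where none passed), the 5 genes most like Nqo1, and genes overlapping or copied from a member; Cul3, Gss, Gsr, Fth1, Ftl1, Blvra and 5 further genes of conjugation were named outside this rule, after their values were seen.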

Additional observations from a re-analysis of the deposited data

Results flagged for a closer look

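Of 52 groups of values examined, 7 held a library far from the rest (13.5%, where chance gives about 1 in 20 for a single group). The groups share libraries, and untreated HFD 3 and UCMSC-Exos 9 recur below. The 7 are therefore not independent, and setting 13.5% beside 1 in 20 is no test. Nfe2l2 was 59.0 CPM in untreated HFD 3, the library with pancreas RNA, with 106 CPM in the nearest library of its group, and the Nfe2l2 to Keap1 ratio there was 1.31, with 1.89 the nearest. Mafk was 67.4 CPM in the same library, with 39.8 CPM the nearest. In UCMSC-Exos 9, Mafk was 41.3 CPM with 33.3 CPM the nearest, Slc3a2 was 64.1 CPM with 47.6 CPM the nearest, and Chac2 was 13.8 CPM with 20.7 CPM the nearest. Pgd was 149 CPM in UCMSC-Exos 6, with 109 CPM in the nearest library.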

How the results depend on the processing

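Osgin1 stayed called in every alternative run. The count of called members, 3 in the main analysis, was 6 with library totals alone, 1 with no filter on low counts, 7 with limma voom, 5 without untreated HFD 3 and 9, 7 without those and UCMSC-Exos 9, and 1 to 5 leaving out 1 library. The wider list, 19 called, gave 35 with limma voom, 31 without the 3 libraries and 15 to 28 leaving out 1. Over all genes, 3274 called, the counts were 1549 with 3 surrogate variables, 7732 with limma voom, 6716 without the 3 libraries and 2005 to 5823 leaving out 1; the lowest were 2005 and 2086 without UCMSC-Exos 3 and 2, and the highest without UCMSC-Exos 9. With 3 surrogate variables the wider list had 5 higher and 16 lower, against 9 and 10. The Gclc to Gclm difference ran from -0.0791 to 0.0061 leaving out 1 library and turned positive without UCMSC-Exos 1 (0.0034) or 3 (0.0061). The Nfe2l2 to Keap1 difference ran from -0.20 to -0.04 and was -0.26 (exact permutation p = 0.014) without the 3 libraries. Gclc (-0.0428) and Gclm (-0.0056) turned negative with library totals alone. The cause of these changes was not tested.

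Same-numbered libraries did not pair (correlations -0.171 to 0.238). With the replicate block, 1 member, 16 genes of the wider list and 3027 genes in all passed, and Srxn1 (-0.50, adjusted p = 0.0772 by edgeR) and G6pdx (-0.27, 0.0993) did not.

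The 7 members that did not pass are not shown to be alike in both groups, since their 95% intervals reach log2 fold changes between -0.76 and 0.77. P-values measure only the spread between these libraries.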

Other observations

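Osgin1, examined for likeness after its values were seen, was most like Slc6a13 (r = 0.917), the heat shock co-chaperone Dnajb1 (0.892), the liver transcription factor Foxa3 (0.881), Palld (0.876) and Prcc (0.871), over deviations from group means in 17 libraries and among 13785 genes. Of these, Dnajb1 (log2 fold change 1.198 ± 0.302 SE, adjusted p = 0.0127 by edgeR) and Foxa3 (0.96 ± 0.23, adjusted p = 0.00837) were higher in UCMSC-Exos livers. The other 3 did not pass. These r too are the highest of 13785 and are raised by that choice.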
